A study of Homo sapiens with 4 samples.

Results

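C15orf48, NDUFA4 and NDUFA4L2 encode a family of 3 small mitochondrial proteins, and their RNA was followed in MDA-MB-231 cells, a human triple-negative breast cancer line. The 3 genes were found in the table of counts by Ensembl identifier, among 20263 genes in all. C15orf48 was chosen because it stood among the largest increases of the same comparison, so its values, and those of its paralogs, are a description and are not offered as a test. Rib_CA cells were treated for 24 h with Rib_CA, which the series title calls a ribociclib derivative, and DMSO cells with the solvent alone, with 2 libraries per group. Both groups are of the 1 cell line, grown in DMEM with serum and antibiotics. The labels do not say whether the libraries of a group came from separate cultures, so errors here measure the spread between these libraries, which may be technical.

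NDUFA4 was first described as a subunit of respiratory complex I and was later assigned to complex IV, cytochrome c oxidase, the enzyme that passes electrons from cytochrome c to oxygen. C15orf48, also called COXFA4L3, NMES1 or MOCCI, is a paralog that inflammatory signals induce in macrophages and epithelial cells and that can take the place of NDUFA4 in complex IV. NDUFA4L2 is a second paralog and is known as a target of hypoxia-inducible factors. The C15orf48 transcript also carries the microRNA miR-147b, for which NDUFA4 is a described target.

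C15orf48 (ENSG00000166920) lies on chromosome 15, bases 45430529 to 45448761, plus strand (GENCODE release 29, GRCh38). NDUFA4 (ENSG00000189043) lies on chromosome 7, bases 10931951 to 10940256, minus strand. NDUFA4L2 (ENSG00000185633) lies on chromosome 12, bases 57234903 to 57240715, minus strand. The sequences below show how the loci of C15orf48 and NDUFA4 are tied to each other: the mature microRNA from the last exon of C15orf48, downstream of its stop codon (chr15:45433098-45433118, plus strand, RefSeq, GRCh38.p14), and the stretch of NDUFA4 that pairs with it. Capitals mark the seed of the microRNA (bases 2 to 8) and, in NDUFA4, the letters that pair with it.
hsa-miR-147b-3p: gUGUGCGGaaaugcuucugcu
NDUFA4 site: agaagccacatCCGCACAattttccactt
The NDUFA4 stretch lies in the last exon (chr7:10933563-10933591, minus strand, GRCh38), and the match takes bases 56 to 62 of a 3′ untranslated region of 1685 bases. The match CCGCACA was found in the 3′ untranslated region of 447 of 19225 genes of the table (2.33%), and it was in neither C15orf48 nor NDUFA4L2. The table of gene counts does not measure the mature microRNA, and pairing of the microRNA with this stretch was not tested.

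The 250 bases before the RefSeq start of C15orf48 are shown because its fold change was higher than that of NDUFA4 (chr15:45430360-45430609, plus strand, GRCh38.p14). No fold change is given for NDUFA4L2. Capitals mark the letters matched by the motifs searched on both strands.
C15orf48 upstream: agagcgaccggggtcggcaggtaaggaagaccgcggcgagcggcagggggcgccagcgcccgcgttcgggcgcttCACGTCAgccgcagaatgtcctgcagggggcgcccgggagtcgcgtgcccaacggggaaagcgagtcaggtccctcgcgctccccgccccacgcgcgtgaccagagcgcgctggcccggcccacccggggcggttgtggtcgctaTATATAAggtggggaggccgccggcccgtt
A TATA box (TATATAA) was matched at bases -30 to -24, a motif held by 2.42% of 35116 RefSeq windows of this length. The GENCODE start of the gene, base 45430529, lies inside the window, and the TATA match lies downstream of that start. A CRE core (TGACGT) was matched at bases -174 to -169 and is held by 7.10% of windows. It overlaps a HIF site core (ACGTG), which is held by 18.5% of windows. There was no match to the kB motif (22.6% of windows), the AP-1 motif TGANTCA (6.57%) or the ATF4 composite motif TGATGNAA (3.14%). The same windows of NDUFA4 and NDUFA4L2 matched none of the 6 motifs. These are matches of letters in 1 window, not sites shown to be bound.

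The 4 libraries held 34774542 to 38865103 counts, and 13667 genes passed the filter on low counts. C15orf48 and NDUFA4 passed it and NDUFA4L2 did not. Transcripts of the mitochondrial genome took 5.78% and 3.13% of counts in Rib_CA 1 and 2 and 8.68% and 21.7% in DMSO 1 and 2. The line's markers VIM, CD44, AXL, CAV1, MSN and S100A4 were all detected, and of the 6 markers it lacks or holds at a low level, ESR1, PGR and CDH1 lay at or below 1.76 CPM (counts per 1000000, with library sizes adjusted by the TMM method), while ERBB2, EPCAM and GATA3 were detected in all libraries.

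C15orf48 was scarce in DMSO cells and about 10-fold higher in Rib_CA cells. It had 570 and 425 counts in Rib_CA 1 and 2, against 34 and 45 counts in DMSO 1 and 2. As scaled levels these are 14.5 and 9.87 CPM in Rib_CA and 0.980 and 1.37 CPM in DMSO. Both Rib_CA libraries lay above both DMSO libraries, which was so of 30.4% of all genes tested. The gap between the groups was wider than that within either. Since C15orf48 was chosen for its increase in this comparison, its separation is no test. The mean was 12.2 ± 3.31 CPM in Rib_CA and 1.17 ± 0.27 CPM in DMSO (SD, n = 2), a log2 fold change of 3.38 ± 0.44 (SE of the fit) or 10.4-fold. Of the 13667 genes tested, 45 had a larger log2 fold change. In such bulk libraries, a larger share of cells that express a gene and more RNA per cell cannot be told apart. C15orf48 shares 213 exonic bases with AC025580.2 on its own strand, where reads cannot be told apart even with strand known. It shares 163 exonic bases with AC025580.1 on the other strand, where they cannot be told apart without it. C15orf48 was chosen from the genes that edgeR's quasi-likelihood test called higher, with an adjusted p of 0.0285, and these were 2.01% of genes tested. With counting error alone, the exact 95% Poisson interval of the lower Rib_CA count, that of Rib_CA 2, was 386 to 467, and that of the higher DMSO count, that of DMSO 2, was 32.8 to 60.2. Intervals cover counting error only, and they understate it where each read pair gave 2 counts. With a correction of every library for GC content and transcript length the fold change was 11.7, but no gene passed, C15orf48 included (adjusted p = 0.0829 in edgeR).

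NDUFA4 was the abundant member of the family in every library. It had 3615 and 5455 counts in Rib_CA 1 and 2, against 1901 and 1528 counts in DMSO 1 and 2. Its levels were 92.3 and 126.7 CPM in Rib_CA and 54.8 and 46.4 CPM in DMSO. The groups did not overlap, which was so of 58.8% of all genes tested, and the lower Rib_CA library was Rib_CA 1, the library in which C15orf48 was higher. The mean was 110 ± 24.4 CPM in Rib_CA and 50.6 ± 5.96 CPM in DMSO (SD, n = 2), a log2 fold change of 1.11 ± 0.28 (SE) or 2.16-fold. NDUFA4 did not pass edgeR's test over all genes (adjusted p = 0.0639). Across the alternatives its log2 fold change stayed positive, from 0.864 without Rib_CA 2 to 1.45 after the GC and length correction. Of the alternatives with all 4 libraries, it passed with DESeq2 and narrowly with no filter on low counts (adjusted p = 0.0497 in edgeR). It also passed with a crossed replicate block, which was chosen after seeing the data, and under no other of these. Of all genes tested, 30.4% had both Rib_CA libraries above both DMSO libraries, so that a separation of this kind was common.

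NDUFA4L2 was near the limit of detection. It had 8 and 6 counts in Rib_CA 1 and 2 and 0 counts in both DMSO libraries. The exact two-sided 95% Poisson interval was 3.45 to 15.8 for 8 counts, 2.20 to 13.1 for 6 counts and 0 to 3.69 for 0 counts. The floor used here is the one-sided limit for a count of 0, which is 3 counts, or 0.0911 CPM in DMSO 2. Low counts of the table were mostly even, which would follow from 2 counts per read pair, and the floor would then be 6 counts. No fold change is given, since the Rib_CA values would lie at about that floor. NDUFA4L2 shares 33 exonic bases with SHMT2, a mitochondrial serine enzyme gene on the opposite strand, which had 26018 and 19995 counts in Rib_CA and 9792 and 9064 counts in DMSO. Whether counting used strand is not given, so the source of the NDUFA4L2 counts was not tested.

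**Figure D1:**
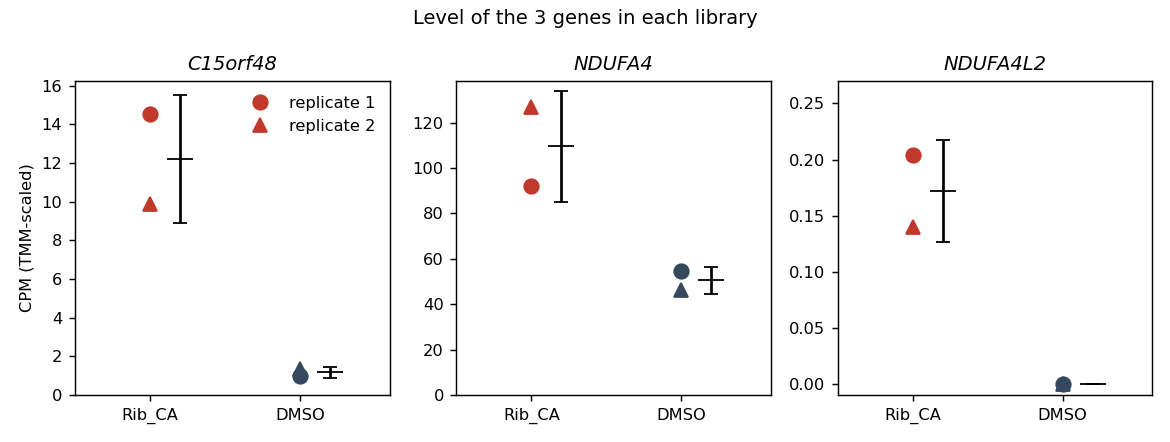
CPM of C15orf48, NDUFA4 and NDUFA4L2 in each library (circles, replicate 1; triangles, replicate 2), with mean ± SD (n = 2) beside the points. In each panel both Rib_CA libraries lie above both DMSO libraries, and the vertical scale runs from under 0.25 CPM for NDUFA4L2 to over 120 CPM for NDUFA4.

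The makeup of the family, which needs no scaling between libraries, differed between the groups. C15orf48 gave 13.6% of the family's counts in Rib_CA 1 (95% Wilson interval 12.6 to 14.7) and 7.22% in Rib_CA 2 (6.59 to 7.91). It gave 1.76% in DMSO 1 (1.26 to 2.45) and 2.86% in DMSO 2 (2.14 to 3.81). The mean share was 10.4% ± 4.51 in Rib_CA and 2.31% ± 0.78 in DMSO (SD, n = 2). The 2 Rib_CA libraries differed from each other by more than counting error, and both were above both DMSO libraries.

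Levels of different genes were compared per length, with the longest protein-coding transcript of GENCODE's basic set (875 bases for C15orf48, 2130 for NDUFA4 and 1186 for NDUFA4L2). On this scale C15orf48 stood at 16.6 and 11.3 CPM per kb in Rib_CA and at 1.12 and 1.56 CPM per kb in DMSO. NDUFA4 stood at 43.3 and 59.5 CPM per kb in Rib_CA and at 25.7 and 21.8 CPM per kb in DMSO. The order was the same in all 4 libraries, NDUFA4 first, C15orf48 second and NDUFA4L2 last, but the distance shrank. The level of NDUFA4 per length was 2.61 and 5.27 times that of C15orf48 in Rib_CA, against 23.0 and 13.9 times in DMSO. These ratios rest on the lengths above, and which transcripts were used was not measured. Per length, C15orf48 made up 27.7% and 15.9% of the family in Rib_CA and 4.17% and 6.69% in DMSO. The sum over the 3 genes was 65.5 ± 7.63 CPM per kb in Rib_CA and 25.1 ± 2.48 CPM per kb in DMSO (SD, n = 2), so the higher share of C15orf48 stood beside a higher level of NDUFA4, not a lower one.

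**Figure D2:**
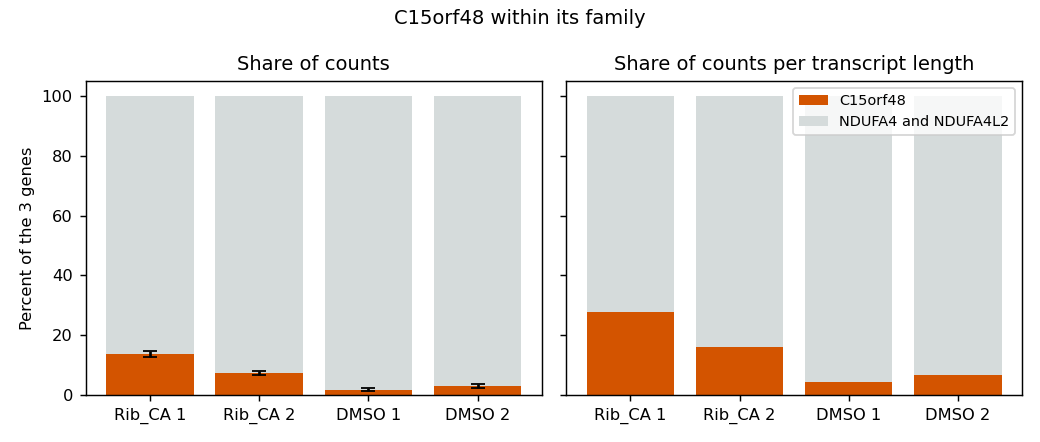
Share of C15orf48 (orange) in the counts of the 3 genes in each library, as counted (left; bars, 95% Wilson interval) and per transcript length (right); grey is NDUFA4 with NDUFA4L2. The orange part is 13.6% and 7.22% of counts in Rib_CA and 1.76% and 2.86% in DMSO.

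NDUFA4 was next set beside the complex it belongs to. Of 16 nuclear genes of complex IV subunits, 10 were tested, and all 10 had a positive log2 fold change (7 of 10 after the GC and length correction) with a median of 0.68, against 0.03 over all genes tested. COX5B, a subunit of the complex's matrix side, rose (1.35 ± 0.26, SE; adjusted p = 0.0368 in edgeR's test), and it alone of the 10 passed, where 2.01% of all genes were called higher. COX8A (1.16 ± 0.27), COX7A2 (1.12 ± 0.34) and COX4I1 (0.97 ± 0.25), all structural subunits, had log2 fold changes near that of NDUFA4 and did not pass. The log2 fold change of 3 of the 10, COX5B, COX8A and COX7A2, was larger than that of NDUFA4. After the GC and length correction these 3 and COX4I1 lay below NDUFA4 (1.45). COX7A2 was then at 1.18, COX5B at 0.91, COX8A at 0.62 and COX4I1 at 0.56. Without either DMSO library COX5B lost its call, and it lost it after the GC and length correction too.

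Within each library NDUFA4 stood at 39.6% and 53.4% of the geometric mean of the 10 subunits per length in Rib_CA, against 36.3% and 34.0% in DMSO. The mean was 46.5% ± 9.78 in Rib_CA and 35.2% ± 1.63 in DMSO (SD, n = 2). Rib_CA 1 lay close to the DMSO libraries on this measure and Rib_CA 2 above them, so the level of NDUFA4 relative to its partners was not clearly apart from the spread between libraries. C15orf48 stood at 15.2% and 10.1% of the same mean in Rib_CA and at 1.58% and 2.44% in DMSO. The level of C15orf48 relative to these subunits was thus several times higher in both Rib_CA libraries than in either DMSO library.

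The 3 catalytic core subunits, which the mitochondrial genome encodes, pointed the other way. MT-CO1 had a log2 fold change of -1.90 ± 0.70, MT-CO2 of -1.55 ± 0.65 and MT-CO3 of -2.04 ± 0.63 (SE). Without DMSO 2 the log2 fold changes were -1.07 for MT-CO1, -0.56 for MT-CO2 and -1.28 for MT-CO3. Without Rib_CA 1 they were -2.80, -2.24 and -2.78 in the same order, and MT-CO1 and MT-CO3 then passed. Without DMSO 1 that of MT-CO2 was -2.14. With all 4 libraries none of the 3 passed edgeR's adjusted test, all 3 had an unadjusted p under 0.05, and DESeq2 called all 3 lower. Over all genes, 3879 of 13667 had such an unadjusted p, and DESeq2 called 1459 of 16177 lower. The levels of MT-CO1 were 15525 and 6006 CPM in Rib_CA and 22491 and 57590 CPM in DMSO, and DMSO 2, with the highest mitochondrial share, lay far above DMSO 1.

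Of 28 assembly factors of complex IV, 2 rose and 1 fell, where 2.01% and 5.11% of all genes were called higher and lower, and the median log2 fold change was 0.48, with 25 of the 28 positive. SURF1, a factor for the assembly of the MT-CO1 module, rose (1.44 ± 0.29) and COX19, a copper-handling factor, rose (1.30 ± 0.27). LRPPRC, which stabilises mitochondrial messenger RNA, fell by 1.42 ± 0.28 (SE). After the GC and length correction the log2 fold change was 0.83 for SURF1 and -0.79 for LRPPRC. COX14 (1.45 ± 0.37), which acts early in the making of MT-CO1, did not pass. The 3 calls were lost on leaving out either DMSO library, and that of COX19 also with the replicate number as a block (adjusted p = 0.0686 in edgeR).

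The name of NDUFA4 comes from complex I, and 2 of the 13 other genes of its naming series rose, NDUFA1 (1.35 ± 0.26) and NDUFA2 (1.31 ± 0.30), where 2.01% of all genes tested were called higher. NDUFA8 (1.15 ± 0.33) and NDUFAB1 (0.93 ± 0.32) did not pass. The series had a median log2 fold change of 0.52, which was 0.18 after the GC and length correction, and before it 10 of the 13 were positive and 3 negative. Both calls were lost on leaving out either DMSO library. In the order of log2 fold changes NDUFA4 came after 3 of these 13, NDUFA1, NDUFA2 and NDUFA8. After the GC and length correction these 3 lay below NDUFA4, at 0.83, 0.83 and 0.69 against 1.45.

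**Figure D3:**
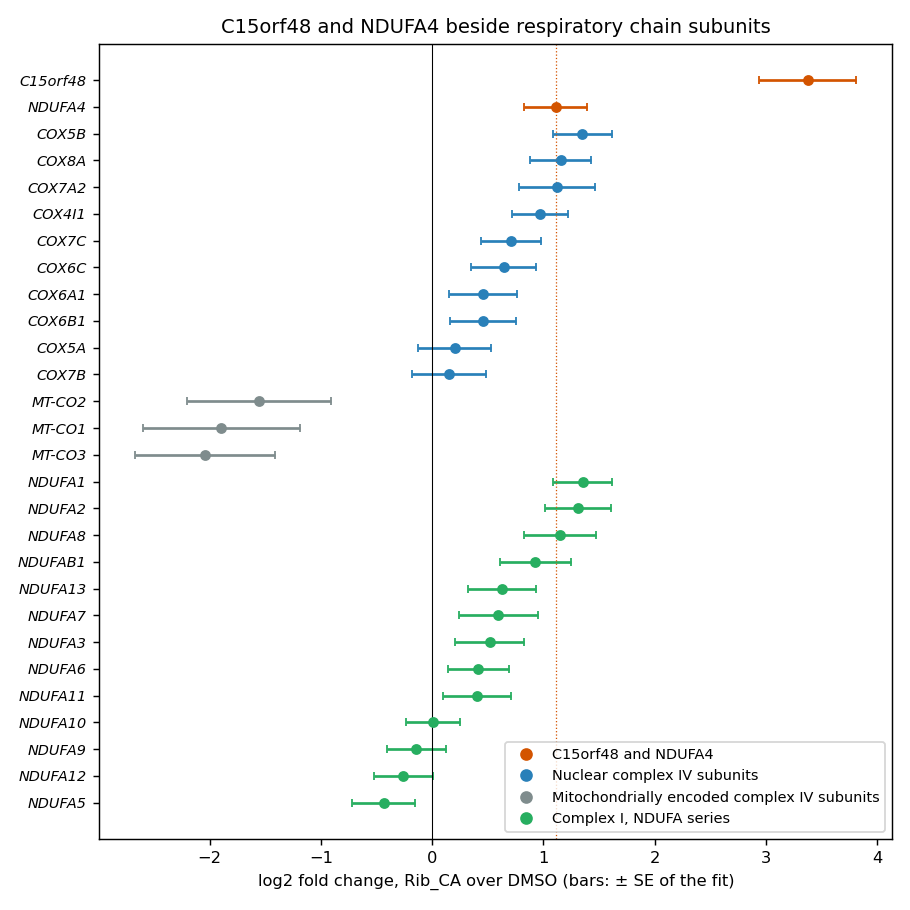
Log2 fold change of Rib_CA over DMSO with its SE for C15orf48 and NDUFA4 (orange), tested nuclear complex IV subunits (blue), mitochondrially encoded complex IV subunits (grey) and complex I subunits of the NDUFA series (green); the dotted line marks NDUFA4. Values are those without the GC and length correction. NDUFA4 (1.11) lies in the upper part of the blue and green genes, C15orf48 (3.38) lies beyond them, and the grey genes are negative.

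C15orf48 is known as a gene that inflammatory signals induce, and genes controlled by NF-kB were listed for comparison. Of 29 listed, 26 were tested and 14 rose, against 2.01% of all genes. Their median log2 fold change was 2.51, and 1.62 without Rib_CA 1. This list, like the others here, was chosen with earlier results of these data known. Its counts are thus a description and not a test. The cytokine gene IL1B (4.69 ± 0.49), the chemokine gene CXCL8 (4.74 ± 0.58), the prostaglandin synthase gene PTGS2 (4.31 ± 0.57) and the NF-kB subunit gene RELB (2.47 ± 0.34) had the smallest p. Without Rib_CA 1 the log2 fold changes were 3.96 for IL1B, 3.88 for CXCL8 and 3.46 for PTGS2. Without DMSO 1 only 5 of the list passed, and 7 without DMSO 2, RELB losing its call without DMSO 1.

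The Rib_CA libraries stood in the same order for C15orf48 as for most of these genes. C15orf48 was 1.47 times higher in Rib_CA 1 than in Rib_CA 2, and NDUFA4 0.728 times. Of the 26 NF-kB genes, 23 were higher in Rib_CA 1, with a median ratio of 2.45, whereas the median over all genes was 0.996. Over all genes tested, 6763 of 13667 were higher in Rib_CA 1, so the order of any gene alone says little. C15orf48 thus differed less between the Rib_CA libraries than the median NF-kB gene did.

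**Figure D4:**
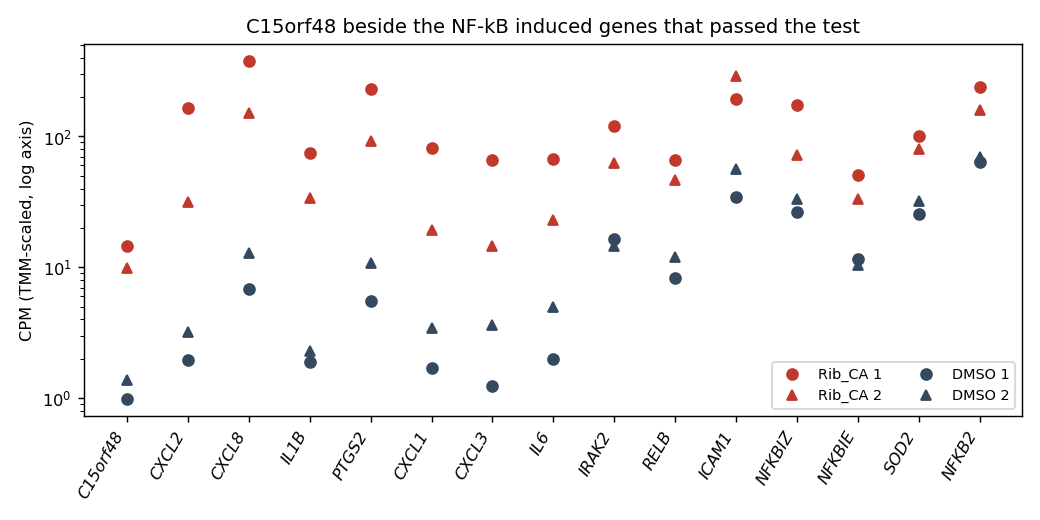
CPM on a log axis in each library for C15orf48 and the 14 NF-kB induced genes that passed edgeR's test, in order of fold change (Rib_CA red, DMSO dark; circles, replicate 1; triangles, replicate 2). For C15orf48 the Rib_CA libraries lie at 14.5 and 9.87 CPM, closer together than for CXCL2, CXCL1 or CXCL3.

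Since C15orf48 is best known from macrophages, markers of leukocytes were read beside it. AIF1 and TYROBP had 0 counts in all 4 libraries, and SPI1, CD163, LYZ, ITGAM and FCER1G lay at or below 0.408 CPM. LAPTM5 lay at 91.2 and 16.2 CPM in Rib_CA and at 71.6 and 118 CPM in DMSO. The 12 markers summed to 117 and 24.7 CPM in Rib_CA and to 85.7 and 142 CPM in DMSO, with most of the sum from LAPTM5 and CD74. The groups overlapped in this sum. Of the 5 markers tested, 1 had a positive and 4 a negative log2 fold change, and 0 were called. For 1 both Rib_CA libraries lay above both DMSO libraries, for 1 below, and for 3 the groups overlapped. Which cells gave the C15orf48 RNA was not tested.

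Because NDUFA4L2 is a known target of hypoxia-inducible factors, genes that these factors induce were read beside it. Of 26 listed, 25 were tested and 1 rose, VEGFA, which encodes an angiogenic factor (2.02 ± 0.31; adjusted p = 0.0285 in edgeR's test). Over all genes tested 2.01% were called higher, so that 1 of 25 is near the background. The call of VEGFA was lost on leaving out either DMSO library. The histone demethylase gene KDM3A (-1.23 ± 0.33) and the glycolytic genes PGK1 (0.91 ± 0.35) and ENO1 (0.79 ± 0.31) did not pass. The hypoxia marker CA9, chosen for mention with its values known, had 0 and 0.813 CPM in Rib_CA and 0.173 and 0 CPM in DMSO and was not tested. The median of the list was 0.46, and 0.30 after the GC and length correction. It was 0.65 without Rib_CA 1 but -0.06 without Rib_CA 2, so it depended on which Rib_CA library was kept.

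Neighbours on the chromosome were read as well. Of 8 genes of the table that start within 250 kb of C15orf48, 5 were tested and none passed edgeR's test. Of these, 3 had an unadjusted p under 0.05, as had 3879 of all 13667 genes tested. DESeq2 called 1 neighbour higher, SQOR, where it called 991 of 16177 genes higher. SPATA5L1, which starts at -28.2 kb (negative is upstream), had 15.1 ± 0.72 CPM in Rib_CA and 8.15 ± 1.73 CPM in DMSO (SD, n = 2; log2 fold change 0.89 ± 0.33, SE). SLC30A4, a zinc transporter gene 92.3 kb downstream, had one of -0.29 ± 0.34. BLOC1S6 (0.86 ± 0.28) and SQOR (1.08 ± 0.33), which start further downstream, were also far below C15orf48 in fold change.

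PHF14, a chromatin reader gene that starts at -33.1 kb from NDUFA4 on the opposite strand, was the 1 gene of the table in that window. It fell, where 5.11% of all genes were called lower. Its levels were 16.4 and 15.8 CPM in Rib_CA and 69.2 and 65.1 CPM in DMSO (log2 fold change -2.06 ± 0.27, SE; adjusted p = 0.0285 in edgeR's test), and its log2 fold change was -1.06 after the GC and length correction. Of 18 genes near NDUFA4L2, 13 were tested and 1 rose, NAB2, a co-repressor gene (1.97 ± 0.29), where 2.01% of all genes were called higher. The call was lost on leaving out either DMSO library. DESeq2 called 3 of these neighbours higher, where it called 991 of 16177 genes higher.

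The genes whose pattern over the 4 libraries was most like that of C15orf48 were sought by the root mean square difference of centred log2 CPM. They were ENSG00000273734 (0.197), IL32 (0.207), CHAC1 (0.209), ADM2 (0.224) and TMEM151B (0.230). ENSG00000273734 and TMEM151B were listed at 0 in both DMSO libraries and lay at or below 0.715 CPM in Rib_CA. Their fitted log2 fold changes were 7.44 ± 1.46 and 6.88 ± 1.52 (SE), against 3.38 for C15orf48. The log2 CPM used for likeness had a prior count of 2, which shrinks differences near 0. IL32, a cytokine gene, had 8.07 and 6.30 CPM in Rib_CA and 0.634 and 1.12 CPM in DMSO, and its call was lost without DMSO 1. CHAC1, whose product degrades glutathione, was 12.2-fold higher in Rib_CA (log2 fold change 3.61 ± 0.41, SE), and 2.99 on the log2 scale after the GC and length correction. ADM2, a peptide hormone gene, had 58.7 and 42.0 CPM in Rib_CA and 5.83 and 5.34 CPM in DMSO.

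For NDUFA4 the nearest genes were RNF7 (0.0319), HMSD (0.0327), MCL1 (0.0367), LETMD1 (0.0387) and MT1E (0.0394), and none of these passed edgeR's test. MCL1, which encodes a survival protein, had 480 and 658 CPM in Rib_CA and 301 and 253 CPM in DMSO, 2.05-fold higher against 2.16-fold for NDUFA4. No complex IV subunit was among the 5 for either gene. Only 10 nuclear subunits stood among the 13667 genes tested, so their absence says little. With 4 libraries, such likeness is mostly a likeness of the difference between the groups.

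Genes with the miR-147b match in the 3′ untranslated region, a list drawn up after the values of NDUFA4 were seen, were read last. Of 363 tested, 181 had a positive and 182 a negative log2 fold change, with a median of -0.0018, against 0.03 over all genes. Of these, 4 rose and 11 fell, or 15 of 363, where 7.13% of all genes were called. NDUFA4, which holds the match shown above, was higher in both Rib_CA libraries than in either DMSO library.

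**Figure D5:**
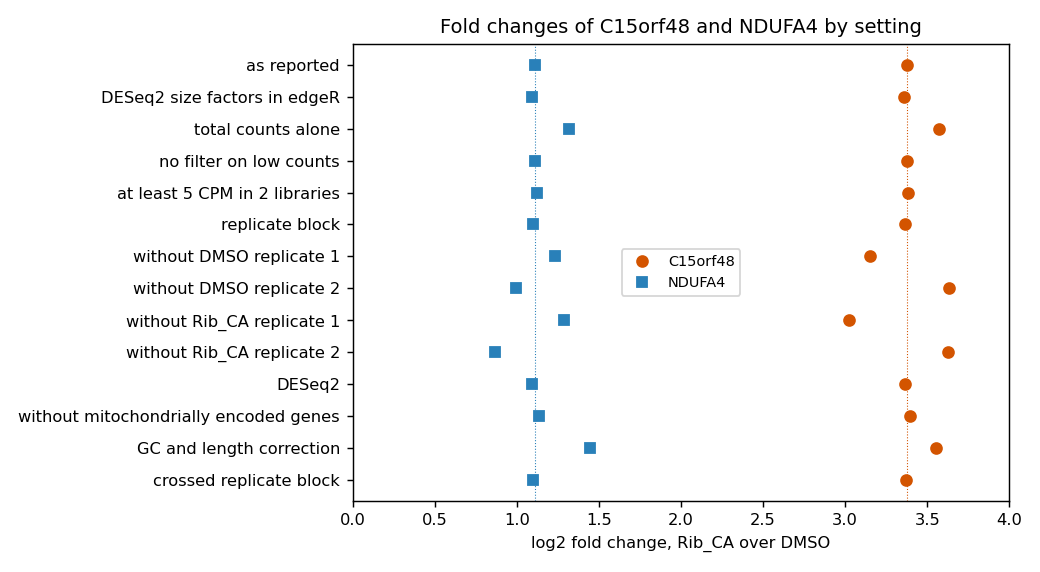
Log2 fold change of C15orf48 (circles) and NDUFA4 (squares) as reported and under each other setting; dotted lines mark the reported values. C15orf48 runs from 3.02 to 3.63 and NDUFA4 from 0.864 to 1.45, and no setting brings either to 0.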

How the data were processed

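The authors deposited raw counts, whole numbers per gene, for 20263 human Ensembl genes in 4 messenger RNA libraries. No source used here names the aligner, the counting tool or the use of strand. Per the submitters' processing notes the builds were GRCm38 and mm10, both of mouse, whereas the identifiers are human. Members and lists were chosen with earlier results of these data known.

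The test was that of edgeR 4.0.16 in R 4.3.3 (filterByExpr with a minimum count of 10, TMM, robust quasi-likelihood test, Benjamini-Hochberg threshold 0.05, 2 residual degrees of freedom), a procedure tested on simulated data. SE is the absolute log2 fold change over the root of F. Low values (1 to 10) were even in 67.7 to 70.7% of cases. SCO2 has 2 identifiers, of which the one with more counts was used.

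Named genes are the members, the up to 4 genes of smallest p in each list, neighbours within 250 kb and the 5 genes of nearest pattern. Alternatives were DESeq2 1.42.0, other scalings and filters, a replicate block, each library left out, no mitochondrial genes, and a smooth over GC content and length (mgcv 1.9.3). RefSeq gave promoter windows for all 3 members. RefSeq lists 5 pseudogenes of NDUFA4, and how reads that fit several genes were counted is not given. Figures used matplotlib 3.10.9.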

Additional observations from a re-analysis of the deposited data

How the results depend on the processing

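The log2 fold change of C15orf48 moved by less than the spread between replicates under all 13 alternatives run (3.02 to 3.63 with 1 library left out), and that of NDUFA4 under 12 of 13 (0.864 to 1.28 with 1 library left out). That of NDUFA4 moved to 1.45 after the GC and length correction. With 2 libraries per group, leaving 1 out can hardly move a value beyond that spread. Those runs are thus no check by this measure. NDUFA4L2 did not pass the filter, and no fitted value is given for it. The difference in the share of C15orf48 in the family's counts was 8.10 percentage points, 4.91 to 11.3 with 1 library left out and 16.4 per transcript length. Counts of called genes were less stable. Over all genes, 974 were called (275 higher, 699 lower), 173 to 2868 with 1 library left out, 588 with total counts alone (260 higher and 328 lower), 2450 with DESeq2 and 0 after the GC and length correction in edgeR, with 3382 at an unadjusted p under 0.05. Total counts alone moved the median of all genes to 0.23. After that correction 0 genes of each list were called, with an unadjusted p under 0.05 for 6 nuclear and 3 mitochondrially encoded complex IV subunits, 12 assembly factors, 3 complex I, 22 NF-kB and 7 hypoxia genes. DESeq2 called 4 nuclear and 3 mitochondrially encoded complex IV subunits, 6 assembly factors and 3 hypoxia genes. With 1 library left out, calls ran from 0 to 5 for nuclear and 0 to 2 for mitochondrially encoded complex IV subunits, 0 to 7 for assembly factors, 0 to 4 for complex I, 5 to 24 for NF-kB and 0 to 10 for hypoxia genes. Calls among nuclear complex IV subunits were 2 with total counts alone, with no filter, with the filter of 5 CPM and without mitochondrially encoded genes. Complex I calls were 1 with total counts alone. Genes called near the members were 2 within 250 kb and 1 within 100 kb. The cause of these changes was not tested.

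The replicate numbers are not known to pair the libraries: deviations of same-numbered libraries correlated at -0.19 over genes. With the replicate block, 947 genes were called over all genes, 1 complex I gene in place of 2 and 2 assembly factors in place of 3 (COX19 and NDUFA2 lost their calls), and the log2 fold changes were 3.36 for C15orf48 and 1.10 for NDUFA4. With a crossed replicate block, chosen after seeing the data, 1991 genes were called over all genes, with 4 nuclear and 3 mitochondrially encoded complex IV subunits, 5 assembly factors and 2 hypoxia genes. Counts of 3 or fewer set the limit for NDUFA4L2, which these libraries cannot resolve.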
